A study of Mus musculus with 12 samples.

Results

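Foxd1 and Selplg are 2 genes of the posterior neural tube of the mouse embryo that were chosen because their array signal was highest in an inner piece of the tube rather than at either end. They are 2 of 18193 genes that the platform annotation names alone on a probe set. Each is measured by 1 probe set, a group of short probes read as a single value, out of 45101 on the array. They were found as the probe sets whose platform annotation names exactly 1 gene, that gene being Foxd1 or Selplg. They were selected on their signals in all 6 pieces, so the course of both genes over the pieces is given as a description with no test.

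The groups are 6 numbered pieces of the neural tube, called parts 1 to 6, from untreated embryos of the outbred strain CD1 at 9.5 days post-coitus, with no mutation or transgene named in the labels. Each part has 2 arrays, replicate 1 and replicate 2, and the design text names 2 embryos as the source. Pancreatin, a mix of digestive enzymes, was applied for 1 min before dissection, and ectoderm, endoderm and lateral plate were taken off with needles, per the labels' protocols. The labels do not say which end is caudal, so positions are given by part number. The values are MAS5 signals, linear intensities scaled so that every array had a trimmed mean of 100. The medians of the 12 arrays lay between 16.7 and 19.1. A low signal could not be separated from background, because detection calls were not used here.

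Foxd1 encodes a forkhead transcription factor, a protein that binds DNA through a winged-helix domain. It is known from the stroma of the developing kidney, from the ventral forebrain and from the temporal retina. Selplg encodes P-selectin glycoprotein ligand 1 (PSGL-1), a mucin-like membrane protein of leukocytes. Once it has been decorated with sialylated and fucosylated sugars and with tyrosine sulfate, it binds selectins on vessel walls and platelets, which lets leukocytes roll along the vessel. In the posterior neural tube, cells leave a caudal progenitor zone that is rich in FGF and Wnt signals and later meet retinoic acid and turn on neural progenitor genes.

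The proximal promoter of Foxd1 is shown because Foxd1 is the gene with the bright, broad course described next. It is taken from RefSeq on build GRCm38.p6, chr13:98353995-98354294, plus strand, and runs from 250 bases before the transcription start to 50 bases after it. Capitals mark matches to short motifs on either strand.
Foxd1 promoter: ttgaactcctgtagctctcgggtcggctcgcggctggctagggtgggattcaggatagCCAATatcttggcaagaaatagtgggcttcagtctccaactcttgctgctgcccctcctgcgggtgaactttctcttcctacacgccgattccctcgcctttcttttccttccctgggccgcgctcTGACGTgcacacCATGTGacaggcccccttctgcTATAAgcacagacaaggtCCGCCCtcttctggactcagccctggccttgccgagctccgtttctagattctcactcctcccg
Counted from the transcription start, the CCAAT box (CCAAT) began at -192, the core of the cyclic AMP response element (TGACGT) at -66, the E-box (CANNTG) at -54, the TATA box (TATAA) at -32 and the GC box (GGGCGG, here on the minus strand) at -14. None of the 5 matches overlapped another. Among 32851 promoters of the same length, 37.4% held the CCAAT box, 7.51% the TGACGT core, 72.3% the E-box, 24.9% the TATA box and 35.7% the GC box. The forkhead core (GTAAACA), the nuclear receptor core (AGGTCA) and the TCF/LEF core (TTCAAAG) had no match in this window, and 3.65%, 16.3% and 5.14% of all promoters held them. The GC content was 57.7%, against a median of 52.7% over all promoters.

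Foxd1 was highest in parts 2 and 3. With replicate 1 given before replicate 2, part 1 had signals of 292.6 and 486.8, part 2 had 935.5 and 1198, part 3 had 933.6 and 1092, part 4 had 517.0 and 542.1, part 5 had 156.8 and 166.6, and part 6 had 47.2 and 63.7. All 12 arrays lay above the median of their own array. Both arrays of part 2 and both of part 3 lay above every array of the other 4 parts, and both arrays of part 6 lay below all others. The means were 389.7 ± 137 in part 1, 1067 ± 185 in part 2, 1013 ± 112 in part 3, 529.6 ± 17.7 in part 4, 161.7 ± 6.91 in part 5, with 55.4 ± 11.7 in part 6 (SD, n = 2 each). Set as a share of the mean in part 2, the signal was 36.5% in part 1, 95.0% in part 3, 49.7% in part 4, 15.2% in part 5, with 5.2% in part 6.

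Ordered by mean, the parts ran from part 2 through parts 3, 4, 1 and 5 to part 6. The only neighbours in that order whose arrays overlapped were parts 2 and 3, whose means differed 1.05-fold. Part 3 was 1.91-fold above part 4, part 4 was 1.36-fold above part 1, part 1 was 2.41-fold above part 5, and part 5 was 2.92-fold above part 6. The gap between parts 4 and 1 was narrow, since the higher array of part 1 (486.8) lay close to the lower array of part 4 (517.0). Which of parts 2 and 3 came highest also rested on single arrays: part 3 had the higher mean when replicate 2 of part 2 or replicate 1 of part 3 was left out.

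The steps had the same direction in both embryos, but parts 2 and 3 were nearly equal in replicate 1, so no direction is read between them. Part 2 was 2.46-fold above part 1 in replicate 2 and 3.20-fold above it in replicate 1. Part 3 was at 0.912 times the signal of part 2 in replicate 2 and at 0.998 times in replicate 1. Part 4 was at 0.496 times part 3 in replicate 2 and 0.554 times in replicate 1, and part 5 was at 0.307 times part 4 in replicate 2 and 0.303 times in replicate 1. Part 6 was at 0.382 times part 5 in replicate 2 and at 0.301 times in replicate 1. The fall from part 4 to part 5 was thus nearly equal in the 2 embryos, and the rise from part 1 to part 2 was the step in which they differed most on the log2 scale, at 1.29 in replicate 2 and 1.66 in replicate 1.

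For the log2 scale an offset of 4.43 was added to each signal. On it, the highest part of Foxd1 lay 2.82 above the mean of parts 1 and 6, and the inner parts 2 to 5 lay 1.89 ± 0.157 above the ends (SE from a limma fit with a coefficient for each part). Part 6 lay 2.69 log2 units below part 1 (difference -2.69 ± 0.257), so the course of Foxd1 was lopsided, with a lower end at part 6. The within-part SD of Foxd1 was 0.27, against a median of 0.245 over the 12089 genes tested.

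**Figure D1:**
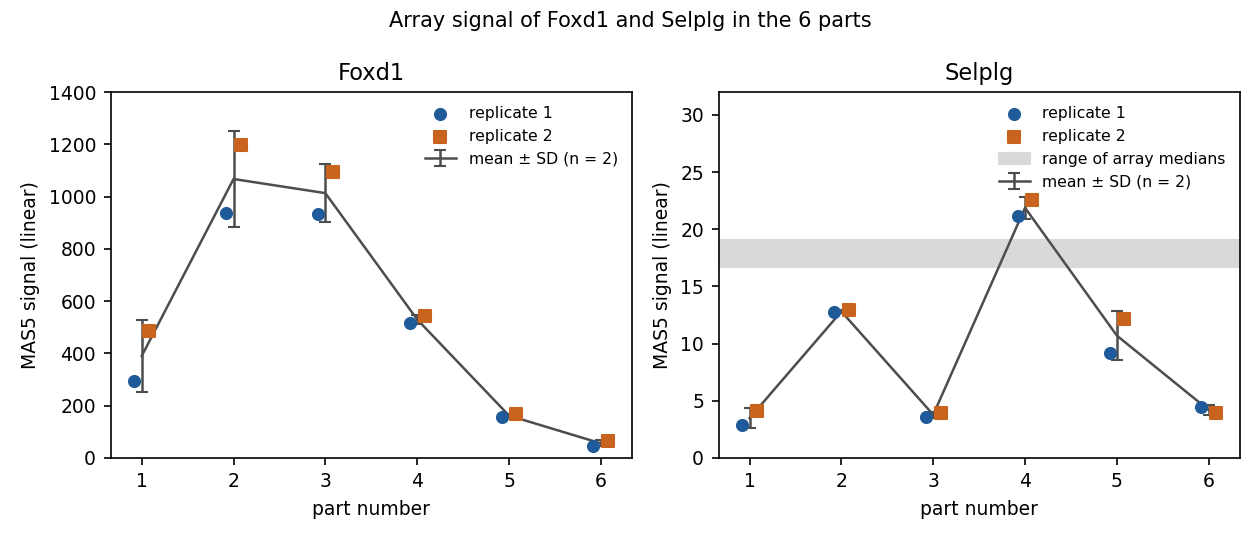
Array signal of Foxd1 (left) and Selplg (right) on linear axes by part number, with replicate 1 as circles, replicate 2 as squares and the mean ± SD of the 2 arrays as a line. Foxd1 is highest in parts 2 and 3, whereas Selplg has a low signal in part 3 between higher ones in parts 2 and 4, and exceeds the shaded range of the array medians (16.7 to 19.1) only in part 4.

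Selplg was highest in another part and was dim throughout. With replicate 1 given before replicate 2, part 1 had signals of 2.86 and 4.09, part 2 had 12.7 and 12.9, part 3 had 3.59 and 3.94, part 4 had 21.2 and 22.6, part 5 had 9.20 and 12.2, and part 6 had 4.48 and 3.88. Only the 2 arrays of part 4 lay above the median of their own array, which was 16.8 for replicate 1 and 17.9 for replicate 2. Selplg therefore entered the fits through part 4 alone, the part for which it was chosen, since a probe set had to exceed its array's median on at least 2 arrays.

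The means of Selplg were 3.48 ± 0.866 in part 1, 12.8 ± 0.129 in part 2, 3.77 ± 0.247 in part 3, 21.9 ± 0.988 in part 4, 10.7 ± 2.11 in part 5, with 4.18 ± 0.422 in part 6 (SD, n = 2 each). Ordered by mean, part 4 came first, with both arrays above those of every other part, and was followed by parts 2, 5, 6, 3 and 1. All arrays outside part 4 lay below their array's median, and no order among those parts is drawn from them. In parts 1 and 3 every array, and in part 6 1 of 2 arrays, lay under the offset of 4.43, where a signal carries least information.

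Foxd1 followed a single rise and fall along the tube. For Selplg the signal in part 3 read lower than in parts 2 and 4 in both embryos, but the arrays of parts 2 and 3 were all below the array median, so a dip in part 3 is not established. On the arrays of part 3, 23.4% of probe sets in replicate 2 and 20.8% in replicate 1 read lower than Selplg. The highest part of Selplg lay 1.67 log2 units above the mean of parts 1 and 6, and the inner parts 2 to 5 lay 0.90 ± 0.101 above the ends. Both differences are set against dim signals in parts 1 and 6 and depend on the offset: with an offset of 1 the first was 2.25, and with an offset of 16 it was 0.93. The within-part SD of Selplg was 0.112, below the median of all genes tested, but the offset also shrinks the spread of dim probe sets.

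The 2 genes were highest in different parts, Foxd1 in parts 2 and 3 and Selplg in part 4. Their log2 signals had Pearson's r = 0.259 over the 12 arrays, a description over arrays that share embryos and parts. Outside part 4 the Selplg signals lay below the array median, so this r says little about the rest of its course. In part 3, where Foxd1 was near its highest level, both Selplg arrays lay under the offset. Among all 12089 genes tested, 97 were called by the limma F test among the 6 parts, had their highest mean in parts 2 to 5, and had both arrays there above every array of parts 1 and 6. Ranked by the log2 difference between the highest part and the mean of the ends, Foxd1 was the second of the 97 genes and Selplg was number 15. The F test call and these ranks use the part values by which the 2 genes were chosen. They restate that choice and are no test of either gene. The difference ranked for Selplg also depended on the offset. Of the 97 genes, 20 were highest in part 2, as Foxd1 was, and 17 in part 4, as Selplg was.

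The difference between replicate 2 and replicate 1, taken as the difference between the embryos, was not used in the choice and was tested. With 1 embryo for each replicate number, the parts of that embryo count as separate arrays in this fit. The SE and p therefore reflect scatter among parts and not variation among animals. Array handling that differed by replicate number could not be told apart from the embryo. Foxd1 was higher in replicate 2 than in replicate 1 in 6 of 6 parts, by ratios of 1.05 to 1.66. Replicate 2 lay 0.31 ± 0.108 log2 units above replicate 1 (SE, limma with part as a covariate), which did not pass after adjustment (unadjusted p = 0.0198, Benjamini-Hochberg adjusted p = 0.175 by limma). Selplg was higher in replicate 2 in 5 of 6 parts, by ratios of 0.867 to 1.43. Its log2 difference was 0.09 ± 0.0876 (limma adjusted p = 0.579). Selplg entered this fit only through its highest part, for which it was chosen, and every other array lay below its median. Such low signals could not be separated from background, so no conclusion on Selplg between the embryos is drawn. Of all genes tested, 1.63% were called in this comparison (0.72% higher in replicate 2), and neither Foxd1 nor Selplg was among them.

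The 6 genes most like Foxd1 over the 12 arrays, by Pearson's r of log2 signals, were Hoxc8 (r = 0.973), Fam13c (0.963), Nkx1-2 (0.94), Dusp6 (0.938), Ankrd34b (0.93) and Hoxa10 (0.93). They were picked for their likeness, so their courses are described here without a test. In all, 19 genes had r above 0.9. Nkx1-2, a homeobox gene known as a marker of caudal neural progenitors and the preneural tube, had means of 1577 ± 441 in part 1, 2806 ± 380 in part 2, 2981 ± 291 in part 3, 2477 ± 43.6 in part 4, 1605 ± 27.8 in part 5, with 977.2 ± 55.1 in part 6 (SD, n = 2 each). It shared the plateau in parts 2 and 3 with Foxd1 but fell less toward part 6. Its other 2 probe sets were dim, with mean signals of 10.1 and 1.71 and r of 0.267 and 0.454.

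Dusp6, a phosphatase that dampens ERK signalling and is induced by FGF, had mean signals of 399 in part 1, 482 in part 2, 419 in part 3, 219 in part 4, 90.9 in part 5, with 36.0 in part 6. Of these 6 genes it came closest to Foxd1 in the depth of its fall toward part 6, but part 1 was far nearer to its maximum. Hoxa10, a posterior Hox gene, had means of 133, 232, 239, 162, 89.0 and 59.1 from part 1 to part 6, and its second probe set, with r = 0.922, was highest in part 2 at 207. Hoxc8, a trunk Hox gene, had the highest r but a shallow course, with part means between 939 in part 6 and 1630 in part 3. A high r thus marks the shape of a course and not its size. Ankrd34b lay between 8.97 in part 6 and 49.4 in part 2, and Fam13c between 51.9 in part 6 and 118 in part 3. A second bright probe set of Fam13c had r = 0.785, and 3 dim ones had r from -0.175 to 0.63.

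**Figure D2:**
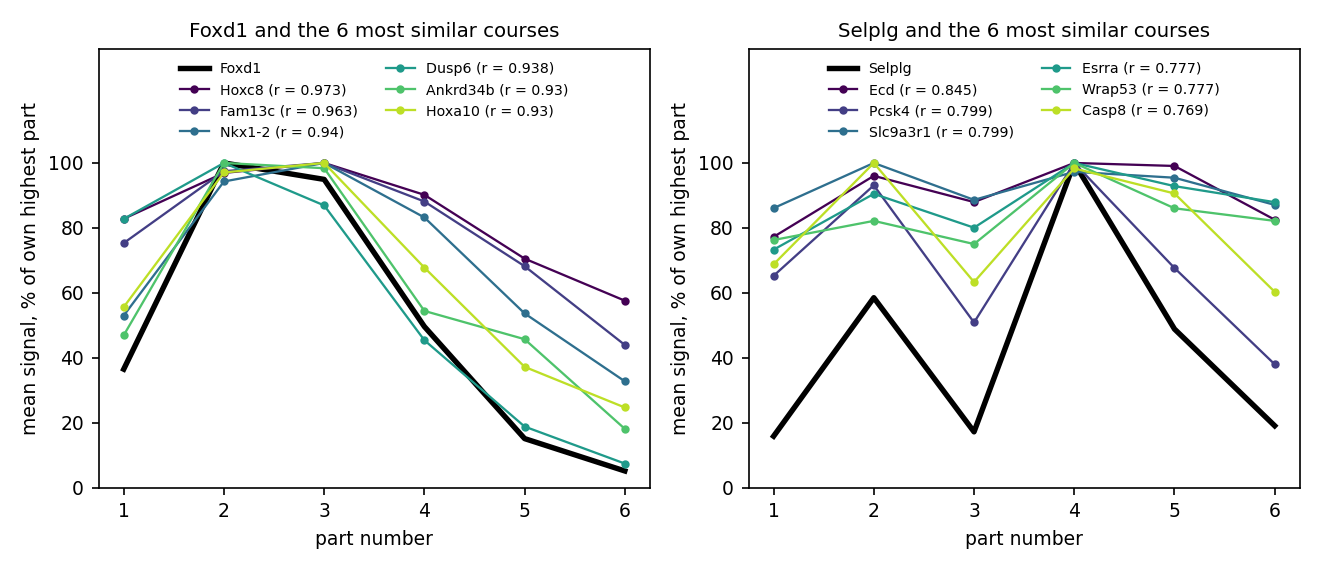
Part means as a percentage of each gene's own highest part mean, by part number, for Foxd1 (left) and Selplg (right) as thick lines and the 6 genes with the highest Pearson's r over 12 arrays as thin lines with points. The genes like Foxd1 share its plateau in parts 2 and 3 and differ in how far they fall toward part 6, and those like Selplg share a lower value in part 3 but vary less than Selplg.

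For Selplg no gene had r above 0.9, and every r rests largely on Selplg signals below the array median. The 6 most like it were Ecd (r = 0.845), Pcsk4 (0.799), Slc9a3r1 (0.799), Esrra (0.777), Wrap53 (0.777) and Casp8 (0.769). Most of these varied little, with Ecd between 584 in part 1 and 756 in part 4. Pcsk4, a proprotein convertase, was dim and came closest in relative size, with means of 21.8, 31.1, 17.0, 33.4, 22.6 and 12.7 from part 1 to part 6. Casp8, which starts extrinsic apoptosis, had means of 36.6, 53.2, 33.7, 52.3, 48.2 and 32.1. The other probe sets of Ecd, Slc9a3r1, Esrra and Wrap53 had r of 0.434 or less with Selplg.

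Foxd2 and Foxd3, close relatives of Foxd1, were highest in part 6, where Foxd1 was lowest. Foxd3, a neural crest specifier and pluripotency factor, averaged 89.4 ± 9.02 in part 6 and 2.16 ± 0.345 in part 1 (SD, n = 2), with 6.82 in part 2, 3.66 in part 3, 19.0 in part 4, with 45.0 in part 5. It was called by the F test among the 6 parts (limma adjusted p = 0.00209), as were 4.91% of all genes tested. Its inner parts were not called different from the ends (-0.52 ± 0.254 log2, limma adjusted p = 0.558). Foxd2 averaged 27.4 ± 0.247 in part 6 and 10.3 ± 0.913 in part 1, and was not called by the F test (limma adjusted p = 0.245). Its inner parts against the ends were not called either (limma adjusted p = 0.807). Foxd4 stayed between 3.70 and 14.6 on all arrays, below the array medians, and was not tested.

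**Figure D3:**
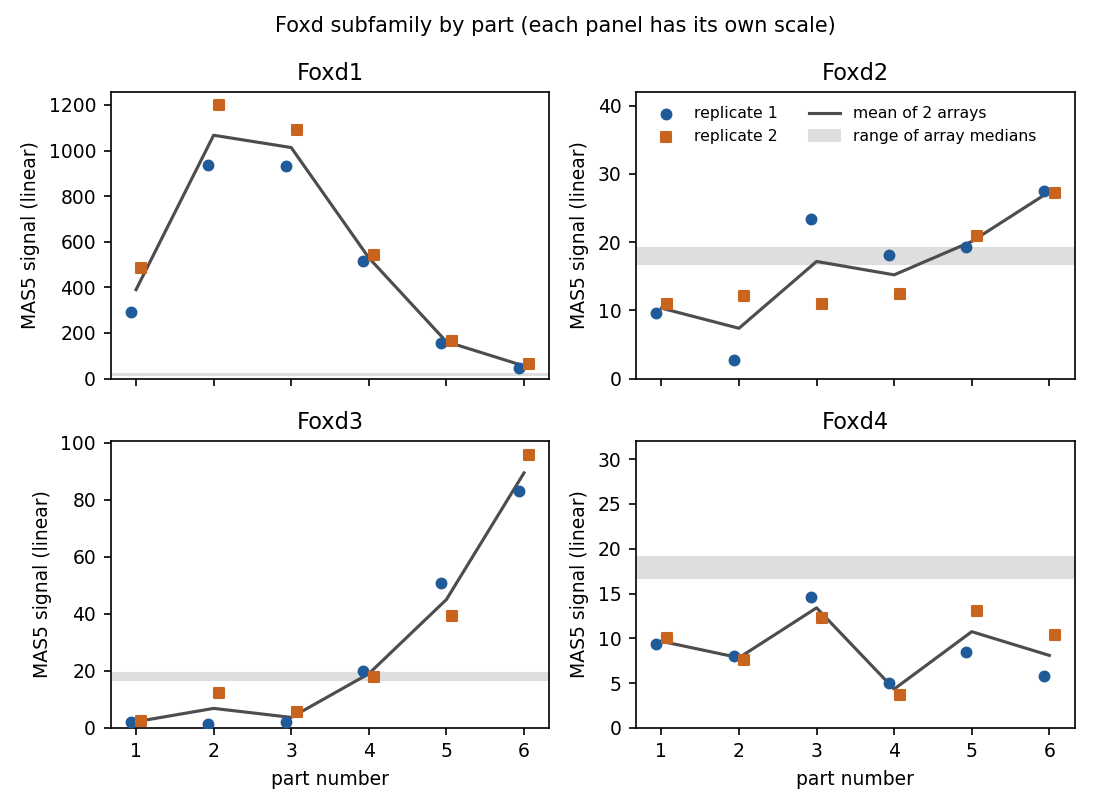
Array signal of Foxd1, Foxd2, Foxd3 and Foxd4 by part number on linear axes, each with its own scale, with replicate 1 as circles, replicate 2 as squares, the mean of the 2 arrays as a line and the range of the array medians (16.7 to 19.1) shaded. Foxd1 falls toward part 6 while Foxd3 rises there to 83.0 and 95.8, Foxd2 stays within 2.66 to 27.6 and Foxd4 within 3.70 to 14.6.

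Of 40 other forkhead factors listed, 33 were on the array and 22 were tested, and 0 were called by limma's F test among the parts or for inner parts against the ends, with 3 and 5 at an unadjusted p under 0.05. Over all genes tested, 4.91% were called by the F test. In the inner parts, 0.48% of them were called higher and 0.323% lower, 97 genes together (by another rule than the 97 inner-highest genes, though the number is equal), and with the replicate block the count was 149. The smallest F test p values belonged to Foxo1 and Foxo4, effectors of insulin signalling, and to Foxk1 and Foxn2 (limma adjusted p = 0.0837, 0.0945, 0.157 and 0.319). With the replicate number as a block, Foxo1 and Foxo4 passed (limma adjusted p = 0.0351 and 0.0367), and without the block some settings gave calls too. Foxo1 passed with the filter at the 75th percentile (0.0399) and without replicate 2 of part 1 (0.0238), Foxo4 with that filter (0.0466) and with an intensity trend (0.0394), and Foxk1 without replicate 1 of part 1 (0.0401). The median difference between inner parts and ends was 0.15 log2 for this list and 0.01 for all genes tested. Foxc1 and Foxc2, named after their values were seen, differed widely between the arrays of part 2. They read 167.8 and 184.7 in replicate 1 and 2.54 and 1.15 in replicate 2.

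Of 10 tested genes linked to the Foxd1-positive kidney stroma, 4 were called by the F test, all 4 higher in part 6 than in part 1, and 6 were not, beside 4.91% called over all genes tested. The 4 were the Hox cofactor Meis1 (496.3 ± 62.9 in part 6 and 13.1 ± 1.65 in part 1), the GDNF receptor Ret (144.1 ± 12.5 and 3.02 ± 1.67), the retinoic acid receptor Rarb (100.9 ± 2.68 and 7.23 ± 1.49) and Aldh1a2, which makes retinoic acid (599.7 ± 18.2 and 17.9 ± 3.26; SD, n = 2 each). Their limma adjusted p values were 6.31e-05, 7.54e-05, 0.000222 and 0.00117. Foxd1 was lowest in part 6, where each of these 4 genes had its highest mean. Rarb was the 1 gene of this list called lower in the inner parts than at the ends (-1.08 ± 0.169 log2, limma adjusted p = 0.0204), beside 0.323% of all genes tested. That call was lost without replicate 2 of part 1, replicate 1 of part 4, replicate 1 of part 5 or either array of part 6. It was also lost with an offset of 1 (limma adjusted p = 0.0788). The list's median difference between part 6 and part 1 was 1.66 log2, against -0.06 for all genes tested.

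Of 7 tested genes tied to Foxd1 in the retina, 2 were called by the F test, beside 4.91% of all genes tested. Robo1, a receptor for Slit guidance cues, averaged 161.2 ± 1.81 in part 6 and 64.8 ± 7.94 in part 1, and the Eph receptor Epha5 averaged 38.0 ± 3.6 in part 6 and 172.6 ± 79.6 in part 1 (limma adjusted p = 0.0339 and 0.0431). Epha5 had means of 172.6, 222.6, 175.7, 119.1, 83.3 and 38.0 from part 1 to part 6. It was thus highest in part 2, as Foxd1 was, though its arrays overlapped among parts 1, 2 and 3. Leaving out either array of part 6 ended both calls (adjusted p = 0.185 and 0.187 for Robo1, 0.159 and 0.210 for Epha5). Robo1 also lost its call without replicate 1 of part 1 or any array of parts 2, 3 or 4, without a filter, and with its probe sets averaged (adjusted p up to 0.385). Epha5 also lost it without replicate 2 of part 3 or any array of parts 4 or 5, without a filter, with quantile normalization, and with an offset of 1 (adjusted p up to 0.0893). Zic2, a zinc finger factor that acts with Foxd1 in the ventrotemporal retina, had means of 18.2, 71.7, 72.1, 65.3, 47.3 and 51.8 from part 1 to part 6 and did not pass (limma adjusted p = 0.0705), but it did with the replicate block (0.0445), with an offset of 16 (0.0474) and with an intensity trend (0.0337). Slit1 did not pass (0.128), though it did with its probe sets averaged (0.0119).

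Selplg's partners and enzymes were tested to the extent that their probe sets were bright enough. Of the selectins that bind PSGL-1, Selp and Sele, named after their values were seen, reached at most 12.4 and 11.3 on any array and were not tested. Among 6 tested genes of the list of selectins and other selectin ligands, 1 was called by the F test, beside 4.91% of all genes tested. This was Podxl, a sialomucin of epithelia and vessels, with 471.1 ± 9.39 in part 6 and 159.3 ± 2.57 in part 1 (limma adjusted p = 0.0149), and the call was lost without either array of part 1 (adjusted p = 0.0742 and 0.0829). Cd44, Vsir and Spn did not pass (limma adjusted p = 0.568, 0.700 and 1.00).

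Of 13 tested enzymes that build the sugars and sulfate of PSGL-1, 1 was called by the F test and 12 were not, a share near the 4.91% called over all genes, so nothing is read from it about these enzymes. St3gal6, a sialyltransferase, averaged 30.4 ± 8.34 in part 6 and 101.7 ± 14.9 in part 1, and 31.5 ± 0.0942 in part 4, the part in which Selplg was highest (limma adjusted p = 0.00615). Without replicate 1 of part 1 its adjusted p was 0.390. It was also called lower in the inner parts than at the ends (-0.81 ± 0.14 log2, limma adjusted p = 0.0334), as were 0.323% of all genes tested. That call was lost in 14 of 20 alternatives. Among them were each array of parts 1, 2, 3, 4 and 6 left out and replicate 2 of part 5 left out. B4galt1, Fut4 and St3gal3, which add galactose, fucose and sialic acid, did not pass (limma adjusted p = 0.332, 0.566 and 0.643). Fut7, the fucosyltransferase best known for making selectin ligands in leukocytes and named after its values were seen, reached at most 9.12 and was not tested. Between embryos 1 of the 13 enzymes was called, beside 1.63% of all genes tested (0.72% higher in replicate 2), with a p that reflects scatter among parts. This was Gcnt1, named after its values were seen, which was 0.73 log2 units higher in replicate 2 (limma adjusted p = 0.0297). That call was lost without a filter (0.0752) and without any array of parts 1, 2, 3, 5 or 6 (adjusted p = 0.0510 to 0.0984). Of 5 tested linkers and kinases that act below PSGL-1, 0 were called by limma's F test, beside 4.91% of all genes tested, with 1 of the 5 at an unadjusted p under 0.05. They included the membrane linkers Ezr (limma adjusted p = 0.269) and Msn (0.994) and the kinases Syk (0.551) and Fgr (0.705).

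Markers of other tissues were set beside both courses, because a dissected piece can hold other cells, and in bulk tissue fewer cells of a type and less RNA per cell cannot be told apart. Leukocyte and macrophage markers, the cells for which Selplg is best known, were dim in every part. Of 16 genes, 6 were tested and 0 were called by limma's F test, beside 4.91% of all genes tested, with 0 of the 6 at an unadjusted p under 0.05. For inner parts against the ends 0 were called, with 1 at an unadjusted p under 0.05. Their summed signal lay between 200.4 and 231.7 in part 1, 162.7 and 203.4 in part 2, 150.9 and 190.7 in part 3, 172.1 and 178.4 in part 4, 183.6 and 193.4 in part 5, and 166.1 and 173.6 in part 6. It was not highest in part 4, where Selplg was highest. Most of the 16 genes were too dim to be tested, so the sum cannot show whether leukocytes were more frequent there. Which cells gave the Selplg signal was not tested. The brightest markers were Coro1a, Csf1r and Laptm5, with 29.1, 23.1 and 18.3 in part 4. Ptprc (CD45), named after its values were seen, averaged 4.58 in part 4 and 16.9 in part 1. Fcer1g, also named after its values were seen, was the only gene of the list with its highest mean in part 4 (11.2). Neither Ptprc nor Fcer1g was bright enough to be tested.

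Blood globins and other erythroid genes differed widely between arrays of the same part. The sum over 7 of them was 10070 in replicate 2 and 59.5 in replicate 1 of part 1, and 6324 in replicate 2 and 94.8 in replicate 1 of part 6. Selplg was low on all 4 of these arrays, at 2.86 to 4.48. In part 4 the erythroid sum was 4119 in replicate 2 and 2727 in replicate 1. Foxd1 was higher in the array with more erythroid signal in 5 of the 6 parts, the exception being part 2, where the sum was 2841 in replicate 2 and 6183 in replicate 1. The part of the erythroid signal in the Foxd1 difference between embryos was not tested.

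Presomitic mesoderm lies beside the caudal neural tube, and the sum of its markers was highest in parts 1 and 2, though single markers differed. The summed signal of its 9 markers lay between 4022 and 5602 in part 1, 2230 and 4253 in part 2, 791.5 and 807.0 in part 3, 772.1 and 804.4 in part 4, 659.5 and 965.4 in part 5, and 990.0 and 1036 in part 6. From part 2 to part 3 this sum fell while Foxd1 kept 95.0% of its level. In part 1, where the sum was highest, Foxd1 was lower than in parts 2, 3 and 4. Whether mesoderm cells added to the Foxd1 signal was not tested. Of 8 tested genes, 4 were called by the F test, all 4 lower in part 6 than in part 1, beside 4.91% called over all genes tested. Rspo3, a Wnt enhancer, averaged 107.8 ± 32.2 in part 6 and 2611 ± 42.7 in part 1, and the segmentation clock gene Hes7 averaged 16.1 ± 2.12 and 1126 ± 413 (limma adjusted p = 0.000111 and 5.77e-05). The other 2, Tbx6 and Msgn1, were named after their values were seen (limma adjusted p = 0.0204 and 0.00666). Pcdh8, a protocadherin and the second brightest marker of the list, ran the other way, with signals of 787.8 and 730.3 in part 6 and of 37.4 and 2.09 in part 1, so that it made up most of the sum in part 6. It was not called (limma adjusted p = 0.272), but it was without replicate 1 or replicate 2 of part 2 (0.00626 and 0.0127), which read 607.3 and 6.83. Tbx6 was not called without replicate 1 of part 1 (0.0899), replicate 2 of part 5 (0.0513) or replicate 2 of part 6 (0.0529). Of 6 intermediate mesoderm genes, the tissue that gives rise to the kidney, 1 was tested and 0 were called by limma's F test, with 0 at an unadjusted p under 0.05, and their sum stayed between 28.4 and 56.5 in all parts.

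Between part 1 and part 6, most caudal progenitor genes fell and most neural progenitor genes rose. Beside 4.91% of all genes tested, the F test called 10 of 11 tested caudal progenitor genes, all 10 lower in part 6 than in part 1. Their summed signal lay between 8654 and 9377 in part 1, between 7088 and 9782 in part 2, between 5575 and 5676 in part 3 and between 1479 and 1576 in part 6, so that parts 1 and 2 overlapped. Beside the same 4.91%, 10 of 12 tested neural progenitor genes were called, 9 of them higher in part 6 than in part 1. The sum over the 12 genes lay between 1618 and 1724 in part 1, between 2009 and 2202 in part 2, between 3179 and 3894 in part 3 and between 8304 and 8659 in part 6. Single genes did not all follow the sums where Foxd1 was highest. Cdx2, a caudal homeobox gene, averaged 1120 ± 115 in part 1, 1226 ± 571 in part 2, then 882.1 ± 3.20 in part 3 (SD, n = 2 each). The neural gene Hes5 averaged 119.2 ± 46.4 in part 1, 35.2 ± 8.57 in part 2, then 35.3 ± 1.26 in part 3 (SD, n = 2 each). In part 2 Cyp26a1, which breaks down retinoic acid, was still at 2034 ± 458 and Irx3, a homeobox gene of neural progenitors, at 205 ± 31.5. In part 3, where Foxd1 was at 1013, Cyp26a1 was at 348.1 ± 143 and Irx3 at 934.7 ± 27.3. In part 4 Cyp26a1 was at 48.1 ± 4.30 and Irx3 at 1952 ± 90.4, with Foxd1 at 529.6 ± 17.7 (SD, n = 2 each).

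**Figure D4:**
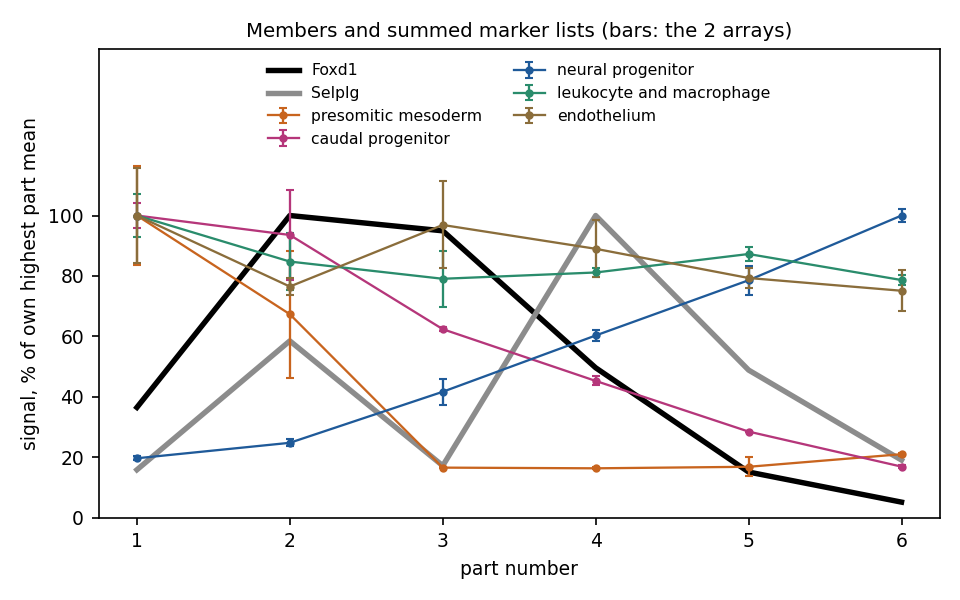
Mean signal of Foxd1 and Selplg (thick lines) and summed signal of 5 marker lists (thin lines, bars spanning the 2 arrays) by part number, each as a percentage of its own highest part mean. Foxd1 stays at 95.0% in part 3, where the presomitic mesoderm sum has fallen. The leukocyte sum, made of dim genes, shows no maximum in part 4, where Selplg is highest. Which cells gave either signal was not tested.

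For inner parts against ends, 2 of 11 tested caudal progenitor genes and 6 of 12 tested neural progenitor genes were called, where 0.48% of all genes were called higher and 0.323% lower. Among caudal progenitor genes, Nkx1-2 was called higher in the inner parts than at the ends (0.96 ± 0.128 log2, limma adjusted p = 0.00887). It was also picked above for its likeness to Foxd1, so this call is no test of that likeness. It lost the call without either array of part 6 (adjusted p = 0.0505 and 0.0613) and when all its probe sets were averaged (0.747), the other kept one being dim. Wnt5b, named after its values were seen, was called lower (-0.86 ± 0.118 log2, adjusted p = 0.00990), though not without replicate 1 of part 6 (0.0713). Among neural progenitor genes 3 were called higher in the inner parts and 3 lower. Irx3 (1.5 ± 0.104 log2) and Sox2 (1.1 ± 0.136) were higher and the Notch effector Hes5 (-2.15 ± 0.161) was lower (limma adjusted p = 0.00115, 0.00627 and 0.00115), and these calls held when any array was left out. The other 3, named after their values were seen, were Sox3, which was higher, and Pax6 and Olig2, which were lower (limma adjusted p = 0.0334, 0.0498 and 0.0164). Each of these 3 lost its call without replicate 2 of part 1 or replicate 2 of part 6 (adjusted p up to 0.149 for Sox3, 0.177 for Pax6 and 0.0814 for Olig2). Sox3 also lost it without replicate 1 of part 1 or any array of parts 4, 5 or 6, and Pax6 without any array of parts 2 to 6 (up to 0.180) or with its probe sets averaged (0.55). Sox3 and Pax6 also lost it without a filter (0.0660 and 0.0956), Pax6 and Olig2 with an offset of 1 (0.0810 and 0.0539), and Olig2 with an intensity trend (0.0685). A call of this kind marks a level in the inner parts off the mean of the ends, and a gene that rises early and then levels off, such as Irx3, can receive it without a peak.

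The genes next to Foxd1 and Selplg on their chromosomes are given as ordered in the RefSeq annotation GRCm38.p6 and measured on the array. On chromosome 13, Gm9828 before Foxd1 had part means of 8.46 to 15.7 (limma F test adjusted p = 1.00) and 2310005E17Rik after it had 1.47 to 4.92 and was not tested. All part means of both genes lay below the array medians, so no course is read for the neighbours of Foxd1. On chromosome 5, Coro1c after Selplg had part means of 167 to 188 (limma F test adjusted p = 1.00). Tmem119 before Selplg, a membrane protein known from bone and microglia, had means of 66.1, 59.9, 52.8, 39.5, 25.4 and 11.8 from part 1 to part 6 (limma F test adjusted p = 0.00234), a steady fall with no rise in part 4.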

How the data were processed

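Gene expression was measured on 12 Affymetrix arrays from 6 parts of the neural tube with 2 arrays each. The authors deposited linear intensity values, 1 for each probe set on each array. MAS5 is the method named, per the submitters' processing notes, and its settings were not given in the sources read here. Of 45101 probe sets, 64 were controls, and the platform annotation gave 1 gene for 34958, several for 932 and none for 9211. Of those with 1 gene and no control, 34741 were found in the reference gene table through their Entrez number. Probe sets above their array's median on at least 2 arrays (21679) were kept, and the one with the highest mean stood for its gene (12089 genes). Values were log2(signal + 4.43), an offset set to 0.25 times the median signal of 17.7.

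limma 3.58.1 in R 4.3.3 gave the F test among parts, parts 2 to 5 against parts 1 and 6, and replicate 2 against replicate 1 with part as covariate, with Benjamini-Hochberg adjustment over all genes at 0.05. Steps were tested on simulated data. The replicate numbers were taken to pair the arrays: deviations of same-numbered arrays correlated in all 15 pairs of parts (0.183 to 0.335), and the design text names 2 embryos. Without the block, arrays from 1 embryo count as independent in a fit. Whether a replicate is a separate animal rests on that text, and 2 arrays per part limit the precision.

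The members and lists were chosen with earlier results of these data known. Named genes were the members, the Foxd subfamily, the 6 highest correlations with each member (clone and predicted-gene symbols passed over), the 4 smallest F test p values per pathway list, the 3 brightest genes per marker list described gene by gene, and the chromosomal neighbours. Alternatives changed the offset, filter, normalization, probe set rule, variance trend, replicate block and single arrays.

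The marker lists of somite (2 of 4 tested genes called by the F test), lateral plate mesoderm (0 of 3, with 0 at an unadjusted p under 0.05 in limma), endothelium (0 of 4, with 1 in limma), neural crest (3 of 10), surface ectoderm (2 of 8), notochord (0 of 3, with 0 in limma) and gut endoderm (0 of 3, with 1 in limma) were counted too. Over all genes tested, the F test called 4.91%. In part 2 the somite sum lay between 174.4 and 630.2 and the notochord sum between 73.9 and 590.6. Meox1 (somite) and Shh (notochord), named after their values were seen, read 109.5 and 503.6 in replicate 1 of part 2. In replicate 2 of part 2 they read 2.82 and 25.4. Whether such cells added to the Foxd1 signal of part 2 was not tested.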

Additional observations from a re-analysis of the deposited data

How the results depend on the processing

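The log2 difference between the highest part and the ends stayed between 2.639 and 3.002 for Foxd1 over 20 alternatives, both extremes coming from leaving out an array of part 1. For Selplg it was 2.25 with an offset of 1 and 0.93 with an offset of 16, and 1.62 to 1.73 when 1 array was left out. The difference between replicates stayed above 0 and did not pass in any alternative, at 0.23 to 0.36 for Foxd1 (limma adjusted p 0.0879 to 0.326 over 19 alternatives) and 0.05 to 0.14 for Selplg (0.486 to 0.869 over 16). Selplg could not be fitted with the filter at the 75th percentile or without either array of part 4, where it no longer passed the filter. The F test called 594 genes, 344 to 566 when 1 array was left out (382 without replicate 1 and 344 without replicate 2 of part 6) and 803 with the replicate block. Inner parts against the ends gave 97 genes, 149 with the replicate block, and 42 to 210 when 1 array was left out (210 without replicate 1 of part 1, 42 and 45 without replicate 1 and replicate 2 of part 6). Replicate 2 against replicate 1 gave 197 genes, 367 with an offset of 16, 114 with no filter, 488 with the filter at the 75th percentile, 611 with an intensity trend, and 113 to 171 when 1 array was left out (129 and 123 without replicates 1 and 2 of part 2, 121 and 113 without those of part 3, 116 and 115 without those of part 6). Among the named genes, the replicate block brought in Foxo1, Foxo4 and Zic2 (limma adjusted p = 0.0351, 0.0367 and 0.0445) and ended no call. The block could not be applied to the difference between replicates, and a part left with 1 array was assumed to vary like the others. The causes of these shifts were not tested. Signals near or under the array median, as for Selplg, limit what can be ordered and what a difference between replicates can show.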
